A study of Mus musculus with 8 samples.

Results

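The genes described here are 10 transcription and signalling genes of the immediate early response, 7 of them members of the AP-1 family: Fos, Fosb, Fosl1, Fosl2, Jun, Junb and Jund, with Atf3, Egr1 and Ier3. They were taken by gene symbol from the array values of mouse osteosarcomas, malignant tumours of bone-forming cells. All 10 were measured, each by 1 probe set, among 19938 genes in all.

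The study profiled 8 primary tumours of C57Bl6 mice, each on its own array. The shRNA OS model (4 tumours) silences p53 with a transgenic hairpin RNA, p53.1224. The Cre:lox OS model (4 tumours) is P53fl/fl, that is, both p53 alleles are floxed. Rb was Rbfl/+, with 1 allele floxed, in 3 tumours of either model, and Rb+/+ in shRNA OS replicate 2 and Cre:lox OS replicate 1. Tumours of shRNA OS came from the tibia (replicates 1 to 3) and the humerus (replicate 4). Tumours of Cre:lox OS came from the scapula (replicate 1), the humerus (replicate 2) and the tibia (replicates 3 and 4). The sources used here do not name the promoter that drives the hairpin or Cre, or the animals' age and sex.

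AP-1 is a dimer of basic leucine zipper proteins, in which a JUN protein pairs with another JUN, a FOS or an ATF protein. The dimers bind DNA at short sites such as the one called the TRE, and the preferred site depends on the partners. Growth factors, stress and mechanical load switch on Fos, Jun and Egr1 within minutes through MAP kinases, and later members such as Fosl1 follow and last longer. In bone the family has a long history: Fos was found through the FBJ murine osteosarcoma virus, mice that overexpress Fos develop bone tumours, and excess Fosl1 raises bone mass in mice.

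The 4 promoters below are shown because Fos and Atf3, and Jun and Junb, had the smallest permutation p among the 45 pairs of these genes over all 8 tumours, which for Jun and Junb takes in the difference between the models. Each run is the 250 bases before the annotated start, read 5′ to 3′ on the gene's strand, from RefSeq on GRCm38.p6. The lines cover chr12:85473640-85473889 (plus strand) for Fos, chr1:191183334-191183583 (minus) for Atf3, chr4:95052223-95052472 (minus) for Jun and chr8:84978749-84978998 (minus) for Junb. Capitals mark a match to a searched motif.
Fos: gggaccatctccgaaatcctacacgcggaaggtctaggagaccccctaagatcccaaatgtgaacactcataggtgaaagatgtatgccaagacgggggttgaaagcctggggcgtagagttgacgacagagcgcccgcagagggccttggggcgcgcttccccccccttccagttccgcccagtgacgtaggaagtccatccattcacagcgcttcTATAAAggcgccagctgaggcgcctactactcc
Atf3: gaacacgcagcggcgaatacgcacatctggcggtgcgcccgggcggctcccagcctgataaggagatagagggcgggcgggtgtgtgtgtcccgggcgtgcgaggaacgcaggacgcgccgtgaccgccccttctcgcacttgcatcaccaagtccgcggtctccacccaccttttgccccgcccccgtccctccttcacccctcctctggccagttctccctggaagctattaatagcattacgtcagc
Jun: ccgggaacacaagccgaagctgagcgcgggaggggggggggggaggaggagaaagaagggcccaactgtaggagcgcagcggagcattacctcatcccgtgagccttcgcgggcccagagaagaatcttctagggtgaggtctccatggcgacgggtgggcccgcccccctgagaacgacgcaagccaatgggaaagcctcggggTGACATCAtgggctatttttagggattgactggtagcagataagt
Junb: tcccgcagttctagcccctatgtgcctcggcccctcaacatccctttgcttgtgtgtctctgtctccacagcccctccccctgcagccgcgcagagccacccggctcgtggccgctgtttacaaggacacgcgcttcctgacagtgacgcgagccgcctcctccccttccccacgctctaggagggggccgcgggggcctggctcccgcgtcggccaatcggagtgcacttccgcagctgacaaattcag

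Motifs were searched on both strands by exact letters: the TRE TGACTCA, the cyclic AMP element TGACGTCA, the TRE-like TGACATCA, the CArG box bound by serum response factor, and TATAAA. They do not overlap one another in these promoters. Jun held TGACATCA at bases -45 to -38 from its start, a sequence through which Jun protein is known to act on its own gene. That motif was present in 2.93% of 32851 promoters of the same length. Fos held TATAAA at bases -33 to -28, found in 12.4% of promoters. Atf3 and Junb held no exact match. The TRE was found in 4.46%, the cyclic AMP element in 1.55% and the CArG box in 1.47% of all promoters, and in none of the 4 shown. Elements farther upstream than 250 bases, and variants of the searched letters, were outside the search. It therefore cannot show that a gene lacks such an element.

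Array medians lay between 7.13 and 7.23 on the log2 scale, and precision is limited by there being 8 arrays. One of them stood apart: shRNA OS replicate 2 correlated with the remaining arrays at 0.941 on average, and every other array did so at 0.961 to 0.968. Its interquartile range was also the narrowest, at 2.59 against 2.79 to 3.19. The 5 osteoblast markers measured (Sp7, Alpl, Ibsp, Col1a1 and Col1a2) averaged 12.61 to 12.71 in shRNA OS and 12.09 to 12.75 in Cre:lox OS. Levels below are log2 values, which are comparable for 1 gene between tumours but not between genes.

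The models were compared to ask whether tumours that arose with the p53 hairpin differ in expression from those with floxed p53. All 10 genes had a lower mean in shRNA OS than in Cre:lox OS, a direction shared by 48.1% of all genes. The median difference, shRNA OS minus Cre:lox OS, was -0.33 over the 10 and 0.01 over all genes. None of the 10 passed limma's test at an adjusted p of 0.05 over all genes, where 4 genes passed (0.0201%). At an unadjusted p of 0.05, 4 of the 10 were lower in shRNA OS (Fosl1, Jun, Ier3 and Junb), against 6.02% of all genes. For Fosl1 and Jun the 2 models did not overlap, which held in this direction for 3.44% of all genes. The genes were chosen with earlier results of these data known, so these counts are descriptions.

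**Figure D1:**
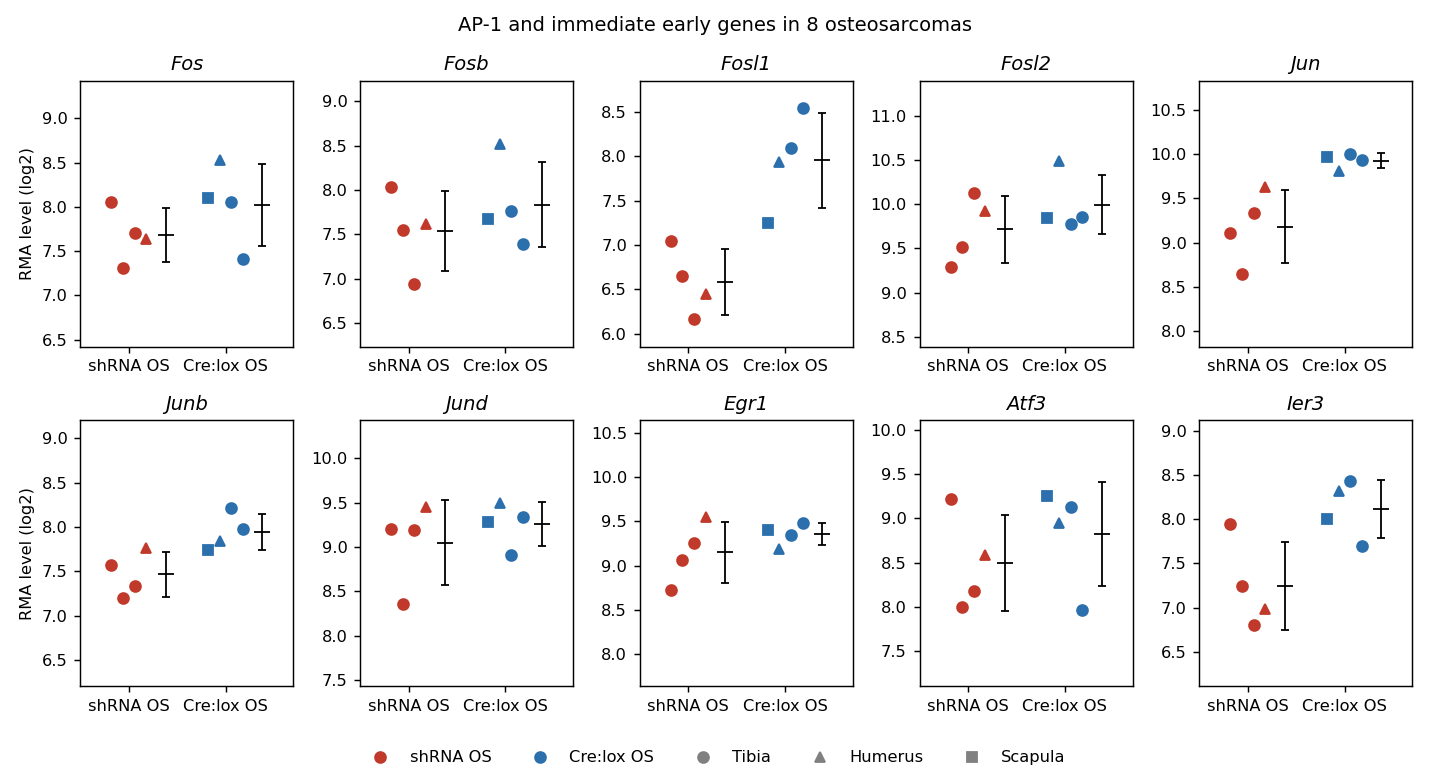
Levels of the 10 genes (RMA, log2) in each tumour, shRNA OS in red and Cre:lox OS in blue, with the marker shape giving the bone and the black bars the mean and SD of 4 tumours. Each panel spans 3 log2 units; Fosl1 and Jun are the genes whose models do not overlap.

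Among the FOS genes, Fosl1 differed most. It encodes FRA-1, a FOS protein that lacks the strong activation domain of FOS and is itself induced by AP-1. Its levels in shRNA OS replicates 1 to 4 were 7.05, 6.65, 6.16 and 6.45, against 7.25, 7.94, 8.09 and 8.54 in Cre:lox OS replicates 1 to 4. The shRNA OS levels lay below the array medians of 7.13 to 7.23, and whether they lay above background was not analysed here. Every shRNA OS tumour lay below every Cre:lox OS tumour, and the nearest to each other were shRNA OS replicate 1 and the scapular Cre:lox OS replicate 1. The means were 6.58 ± 0.37 in shRNA OS and 7.95 ± 0.53 in Cre:lox OS (SD, n = 4 each). The difference was -1.38 (SE 0.28, 95% interval -2.0 to -0.75), with an unadjusted p of 6.72e-04 and a limma adjusted p of 0.163. By p it stood at rank 80 of 19938 genes, and 0.512% of genes had a lower difference.

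Fos, the founding member, differed less. It had levels of 8.06, 7.31, 7.71 and 7.64 in shRNA OS, against 8.10, 8.53, 8.06 and 7.41 in Cre:lox OS. The groups overlapped, since the tibial Cre:lox OS replicate 4 lay below 3 of the shRNA OS tumours. The difference was -0.34 (SE 0.25, limma adjusted p = 0.732). Fosb, which also yields a short form known from bone, ranged from 6.94 to 8.03 in shRNA OS (median 7.58) and from 7.39 to 8.52 in Cre:lox OS (median 7.71). Its difference was -0.30 (SE 0.28, limma adjusted p = 0.817). Fosl2, which encodes FRA-2, a regulator of osteoblast and osteoclast function, ranged from 9.29 to 10.13 in shRNA OS and from 9.78 to 10.49 in Cre:lox OS. Its difference was -0.28 (SE 0.23, limma adjusted p = 0.774). The 95% intervals of these 3 genes reach from -0.94 to 0.33, so differences close to that of Jun lie within them. Without Cre:lox OS replicate 2 the differences were -0.17 for Fos, -0.071 for Fosb and -0.11 for Fosl2.

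Of the JUN genes, Jun differed most. It encodes c-JUN, the AP-1 subunit activated by the JNK kinases. Its levels were 9.11, 8.65, 9.33 and 9.63 in shRNA OS replicates 1 to 4, against 9.97, 9.81, 10.0 and 9.93 in Cre:lox OS replicates 1 to 4. The Cre:lox OS tumours lay close together at 9.93 ± 0.08, and the shRNA OS tumours were lower and more spread at 9.18 ± 0.41 (SD, n = 4 each). The difference was -0.75 (SE 0.20), with an unadjusted p of 0.00397 and a limma adjusted p of 0.248. Its lowest value belonged to shRNA OS replicate 2, the array that stood apart. Without that tumour the difference was -0.57 (SE 0.15, limma adjusted p = 0.322).

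Junb encodes a weaker activator that can hold back c-JUN. It had 7.57, 7.20, 7.33 and 7.76 in shRNA OS, against 7.74, 7.84, 8.21 and 7.98 in Cre:lox OS. The models overlapped by 1 tumour each, the humeral shRNA OS replicate 4 and the scapular Cre:lox OS replicate 1. The difference was -0.48 (SE 0.17, limma adjusted p = 0.398). Jund, a JUN gene that growth factors induce less than the others, ranged from 8.36 to 9.45 in shRNA OS and from 8.91 to 9.50 in Cre:lox OS. Its difference of -0.21 (SE 0.24, limma adjusted p = 0.855) rested on shRNA OS replicate 2, without which it was 0.02.

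Ier3, an early response gene that modulates cell survival, was the remaining gene with an unadjusted p under 0.05. It had 7.94, 7.25, 6.80 and 6.99 in shRNA OS, against 8.0, 8.32, 8.43 and 7.70 in Cre:lox OS. Only shRNA OS replicate 1 reached into the range of Cre:lox OS. The means were 7.24 ± 0.50 in shRNA OS and 8.11 ± 0.33 in Cre:lox OS (SD, n = 4 each). The difference was -0.87 (SE 0.26), with an unadjusted p of 0.00784 and a limma adjusted p of 0.307.

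Atf3, a stress-induced partner of JUN proteins, had 9.22, 8.0, 8.18 and 8.58 in shRNA OS, against 9.25, 8.95, 9.13 and 7.96 in Cre:lox OS. The range of shRNA OS lay within that of Cre:lox OS, and each model held tumours near both ends. The difference was -0.33 (SE 0.33, limma adjusted p = 0.832). Egr1, a zinc finger factor outside AP-1 that is induced by the same signals, was the steadiest of the 10. It had 8.73, 9.06, 9.26 and 9.55 in shRNA OS, against 9.40, 9.19, 9.35 and 9.48 in Cre:lox OS. The humeral shRNA OS replicate 4 had the highest Egr1 of all tumours, and the difference was -0.21 (SE 0.18, limma adjusted p = 0.789).

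**Figure D2:**
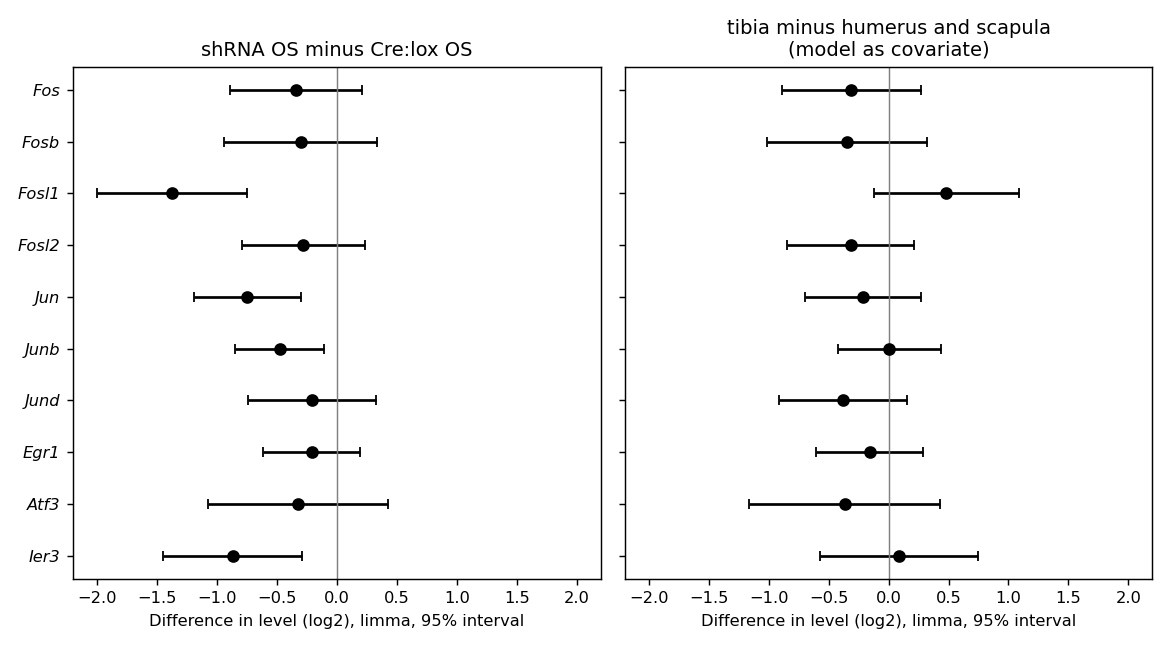
Differences in level (log2) of each gene from limma with 95% intervals, shRNA OS minus Cre:lox OS on the left and tibia minus humerus and scapula on the right. On the left Fosl1 (-1.38), Ier3 (-0.87), Jun (-0.75) and Junb (-0.48) have intervals below 0, and on the right every interval includes 0; none of the genes passes after adjustment over all genes.

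The tumours also differed one by one. The spread of Fosl1 over the 8 tumours (SD 0.85) exceeded that of 97.0% of genes and that of Ier3 (SD 0.61) exceeded 92.0%, while Egr1 (SD 0.26) lay near the median gene (SD 0.27). In shRNA OS replicate 2, none of the 10 genes was above its mean over the 8 tumours, and Fos, Jun, Junb and Jund had their lowest values there. This is the tumour whose array stood apart, and its part in these values was not tested. In shRNA OS replicate 3, Fosb, Fosl1 and Ier3 were lowest and 3 of the 10 genes were above their means. Replicate 1 of shRNA OS was mixed: Atf3 was 0.56 and Fosb 0.35 above the mean of the 8 tumours, while Fosl2 (-0.56) and Egr1 (-0.52) were lowest there.

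Among Cre:lox OS tumours, the humeral replicate 2 had the highest Fos, Fosb, Fosl2 and Jund, and 9 of its 10 genes were above their means. The tibial replicate 3 had the highest Jun, Junb and Ier3, with 8 of 10 above. The tibial replicate 4 carried the highest Fosl1 of the series, 1.27 above its mean, beside the lowest Atf3 (-0.70). The highest Fos and the highest Fosl1 thus lay in different tumours of the same model.

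**Figure D3:**
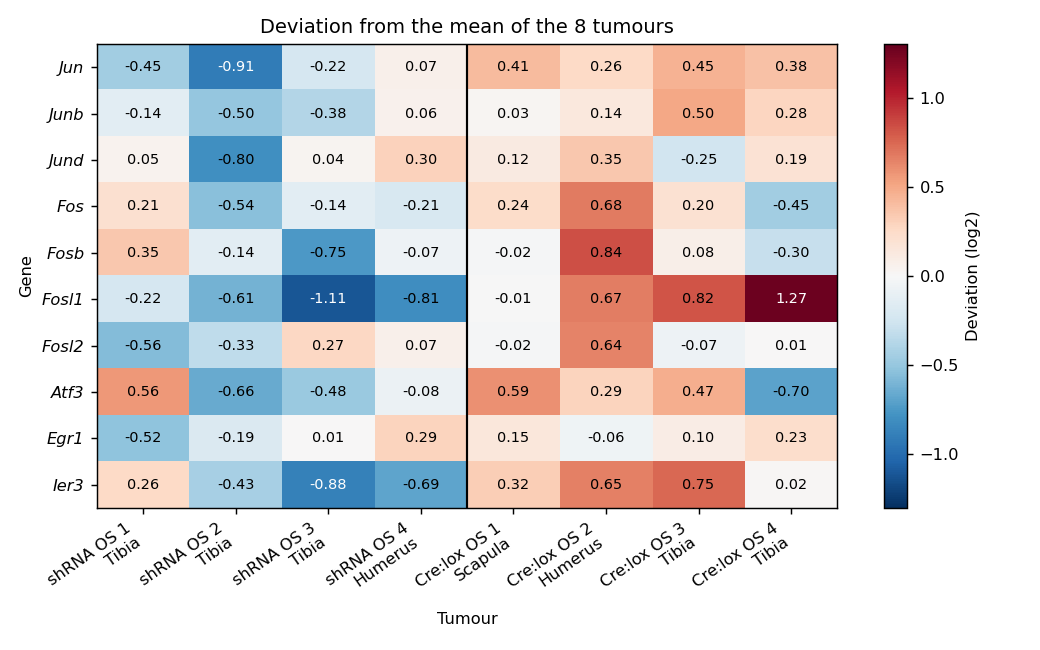
Deviation of each gene from its mean over the 8 tumours (log2), one column per tumour with its bone and one row per gene. shRNA OS replicate 2 is below the mean for every gene, and Cre:lox OS replicate 2 is above it for every gene except Egr1 (-0.06).

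Whether genes were high in the same tumours was examined for all 45 pairs. Of these, 40 had a positive correlation over the 8 tumours and 29 had one after each model's mean was taken off. No pair passed an exact 2-sided permutation test over the 40320 pairings after adjustment over 45 pairs, and 6 had an unadjusted p under 0.05. All genes share the 8 arrays, so a shift of a whole array enters every pair. For Fos and Atf3, Pearson's r was 0.83 (exact permutation p = 0.0149, adjusted 0.236) and Spearman's rho was 0.81 (exact permutation p = 0.0218, adjusted 0.276). Without the 2 tumours farthest from the median of Fos, r was 0.95, and it was 0.81 for deviations from the model means.

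Fos and Fosb had r = 0.74 (exact permutation p = 0.0315, adjusted 0.236) and rho = 0.76 (exact permutation p = 0.0368, adjusted 0.276), with r = 0.61 without the 2 farthest tumours. Fosb and Ier3 had r = 0.73 (exact permutation p = 0.0311, adjusted 0.236) and rho = 0.79 (exact permutation p = 0.0279, adjusted 0.276). Their r was weaker, at 0.43, without the 2 tumours farthest from the median of Fosb, and it was 0.77 for deviations from the model means. The levels of Jun and of Fosl1 separate the models, so a pooled correlation of their pairs takes in that difference. After each model's mean was taken off, r was 0.65 for Jun and Junb, 0.40 for Fosl1 and Junb, 0.36 for Fosl1 and Ier3, and -0.25 for Fosl1 and Jun. Fosl1 and Jun, the genes without overlap between the models, did not rank the tumours alike within a model.

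**Figure D4:**
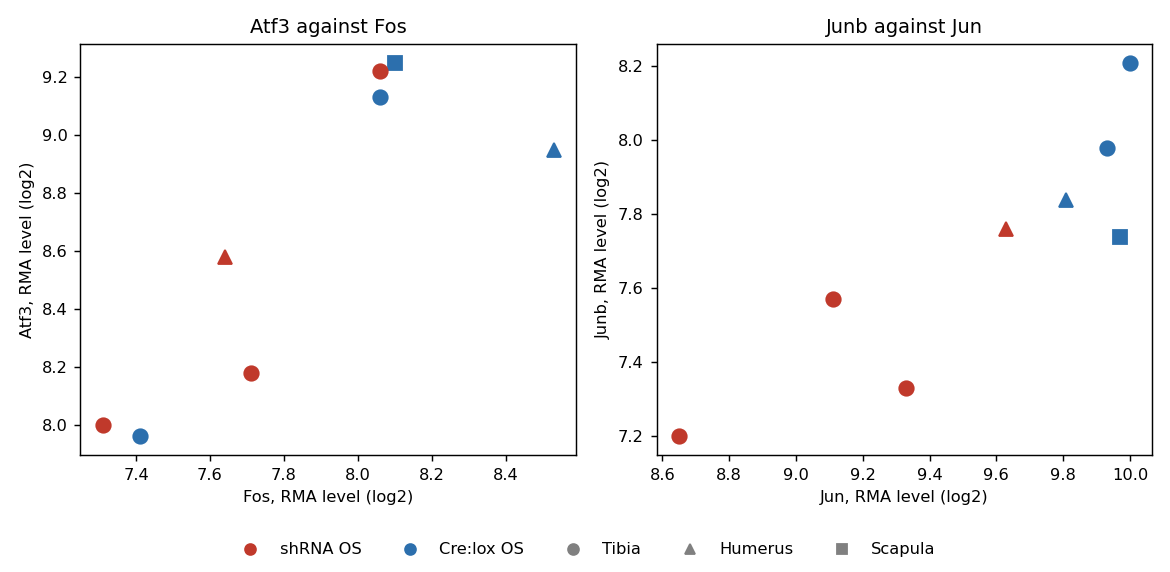
Atf3 against Fos (left) and Junb against Jun (right), RMA levels in log2, one point per tumour with shRNA OS in red and Cre:lox OS in blue and the marker shape giving the bone. Fos and Atf3 spread along a similar line in both models, except for Cre:lox OS replicate 2, with the highest Fos (8.53) but an Atf3 of 8.95. Jun places all 4 shRNA OS tumours left of all 4 Cre:lox OS tumours.

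The genes most alike to Fos and to Jun were sought among 1677 genes of at least median level that varied with an SD of at least 0.5, by Pearson's r over the 8 tumours. Closest to Fos were Msi1 (0.933), an RNA-binding protein of progenitor cells, Atp2a3 (0.925), a calcium pump of the endoplasmic reticulum, Sgca (0.911), a sarcoglycan of muscle, Grhpr (0.899), a glyoxylate reductase, and Ifrd1 (0.897), a transcriptional coregulator. Closest to Jun were Fmod (0.960), which encodes the collagen-binding proteoglycan fibromodulin, Arsa (0.938), a lysosomal sulfatase, Mtap (0.926), a methionine salvage enzyme, Ecm1 (0.919), a matrix protein, and Socs3 (0.916), an inhibitor of cytokine signalling. Fmod ranged from 10.06 to 11.38 in shRNA OS and from 11.82 to 12.16 in Cre:lox OS. Socs3 ranged from 7.53 to 8.54 in shRNA OS and from 8.85 to 9.39 in Cre:lox OS. The levels of both genes did not overlap between the models, which their choice by likeness to Jun favours. After each model's mean was taken off, r with Jun was 0.72 to 0.87 for the 5 genes closest to Jun. For the 5 closest to Fos, r with Fos was 0.89 to 0.92. The choice by r over the same tumours favours high values here too. All 5 genes closest to Jun were lowest in shRNA OS replicate 2, the array that stood apart, as Jun was.

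Genes around AP-1 were described from 5 lists. Of 20 measured genes known as AP-1 targets, 17 had lower and 3 higher means in shRNA OS, with a median difference of -0.51 against 0.01 over all genes. None passed over all genes, and 7 were lower at an unadjusted p of 0.05, against 6.02% of all genes. The models did not overlap for 4 of the 20, against 3.44% of all genes. Plau, which encodes the protease urokinase, ranged from 8.32 to 9.54 in shRNA OS and from 9.55 to 10.98 in Cre:lox OS, a difference of -1.48 (SE 0.33, limma adjusted p = 0.205). Timp1, an inhibitor of matrix metalloproteinases, ranged from 10.09 to 11.67 in shRNA OS and from 11.78 to 12.71 in Cre:lox OS, a difference of -1.31 (SE 0.35, limma adjusted p = 0.249). The others were Hmox1 (-1.03), the haem-degrading enzyme, and Il6, a cytokine, both named after their values were seen. Il6 reached 4.51 in shRNA OS and began at 4.52 in Cre:lox OS, and whether it lay above background was not analysed here. The mean of the list was 9.82 to 10.01 in shRNA OS and 10.32 to 10.65 in Cre:lox OS.

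Heat shock genes, which stress and tissue handling also induce, were lower on average in shRNA OS in 11 of 11 measured members, against 48.1% of all genes. Their median difference was -0.24, and none was past the threshold. The models did not overlap for 3 of the 11, against 3.44% of all genes. Hspa1a, the inducible HSP70, ranged from 7.45 to 8.24 in shRNA OS and from 8.35 to 10.74 in Cre:lox OS, a difference of -2.06 (SE 0.46, limma adjusted p = 0.205). Hspb1, the small heat shock protein HSP27, differed by -1.50 (SE 0.40, limma adjusted p = 0.259), and Hsp90aa1 (-0.75), named after its values were seen, did not overlap either. The list's mean was 9.86 to 10.33 in shRNA OS and 10.48 to 10.81 in Cre:lox OS. It moved with the model as Jun and Fosl1 did, and its part in their differences was not tested.

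Of 36 other immediate early genes, 21 had lower and 15 higher means in shRNA OS, with a median difference of -0.05. None passed, and at an unadjusted p of 0.05 5 were lower, against 6.02% of all genes, and 1 was higher, against 3.61%. Those of smallest p were Maff, a small MAF protein (-0.58, SE 0.18, limma adjusted p = 0.335), and Gadd45g, a stress-response gene (-0.91, SE 0.29, limma adjusted p = 0.356). Of 20 other leucine zipper partners, 12 had lower and 8 higher means (median difference -0.17), none past the threshold. At an unadjusted p of 0.05, 3 of the 20 were lower, against 6.02% of all genes. The models did not overlap for 2 of the 20, against 3.44% of all genes. The mean of this list was 8.80 to 9.13 in shRNA OS and 9.15 to 9.17 in Cre:lox OS, a narrow separation. Atf1, a CREB-family factor, ranged from 9.13 to 9.53 in shRNA OS and from 9.83 to 10.14 in Cre:lox OS (difference -0.67, SE 0.14, limma adjusted p = 0.181), and Bach1, a repressor of haem-responsive genes, differed by -0.44 (limma adjusted p = 0.471). Of 18 kinases and factors upstream of AP-1, 13 had lower and 5 higher means (median difference -0.08), none past the threshold. Rps6ka3, a kinase activated by ERK that acts on FOS, differed by -0.46 (SE 0.15, limma adjusted p = 0.349), and the p38 kinase gene Mapk13 by 0.51 (SE 0.19, limma adjusted p = 0.440).

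**Figure D5:**
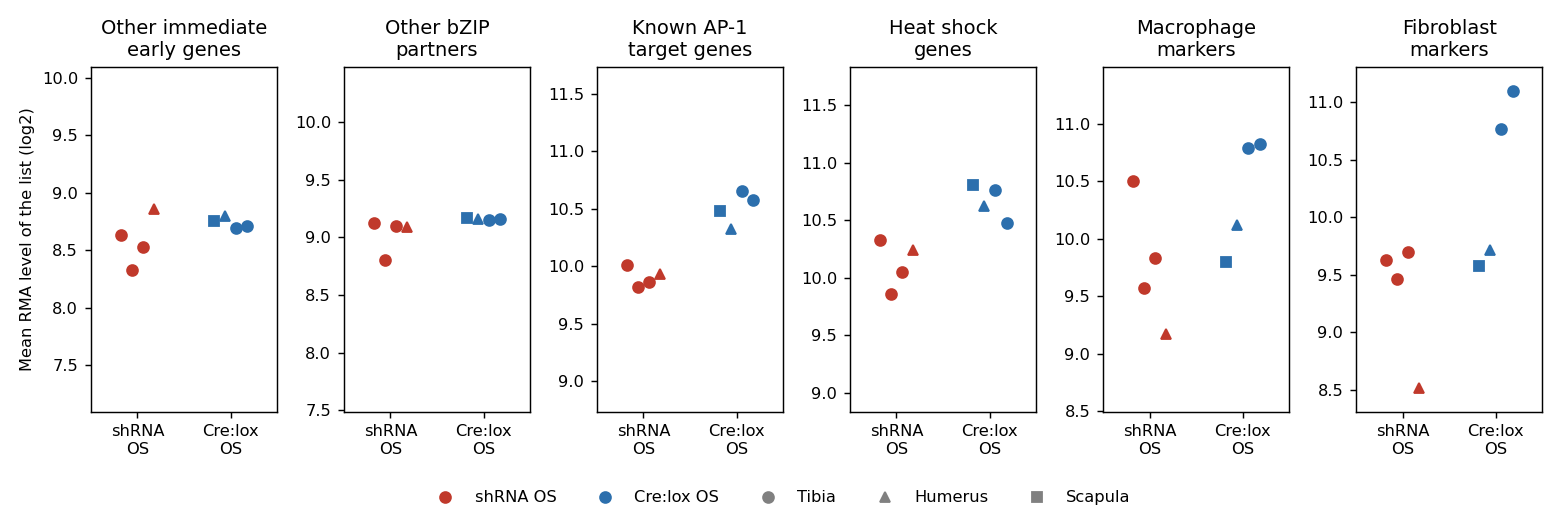
Mean level (RMA, log2) of 6 gene lists in each tumour, shRNA OS in red and Cre:lox OS in blue, each panel spanning 3 log2 units and the marker shape giving the bone. Means of known AP-1 targets, heat shock genes and other leucine zipper (bZIP) partners do not overlap between the models. For the bZIP partners the separation is narrow, up to 9.13 in shRNA OS and from 9.15 in Cre:lox OS. Means of other immediate early genes and of macrophage and fibroblast markers overlap. Taken singly, 3 of the 6 fibroblast markers do not overlap.

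Macrophages, fibroblasts and muscle also express genes of this response, and their markers differed on average between the models. All 7 macrophage markers had lower means in shRNA OS, with list means of 9.17 to 10.50 in shRNA OS and 9.80 to 10.82 in Cre:lox OS. Of 6 fibroblast markers 5 had lower means, with list means of 8.52 to 9.70 in shRNA OS and 9.58 to 11.10 in Cre:lox OS. Although these list means overlap, the models did not overlap for 3 of the 6 fibroblast markers, against 3.44% of all genes. They did so for 0 of the 7 macrophage and 0 of the 7 skeletal muscle markers. All 7 skeletal muscle markers had lower means, with list means of 7.53 to 10.84 in shRNA OS and 8.11 to 10.61 in Cre:lox OS. Markers of other cells went mostly the other way. Means were higher in shRNA OS for 6 of 7 neutrophil, 4 of 4 B cell and 5 of 6 endothelial markers. The same held for 5 of 7 osteoclast and 5 of 7 T and NK cell markers. Of all genes, 48.1% were lower. The highest of the macrophage and fibroblast lists was Cre:lox OS replicate 4, which also had the highest Fosl1, and the lowest was shRNA OS replicate 4. The part of these cells in the differences of Fosl1 and Jun was not tested. In bulk tumour RNA, fewer cells of a type and less RNA per cell cannot be told apart.

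The labels also give the bone, and 5 tibial tumours were compared with 3 from the humerus or scapula, the fit holding the model as a covariate. None of the 10 genes passed, and no gene of the 19938 did (0.0%). At an unadjusted p of 0.05, limma counted 0 of the 10 against 5.64% of all genes (1125 genes). Of the 10, 7 had lower and 3 higher estimates in tibial tumours, with a median of -0.26 against -0.03 over all genes. No gene of the 10 separated the sites, against 2.6% of all genes.

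Jund, for which 4 of 5 tibial tumours lay below all others, had the lowest estimate of the JUN and FOS genes, -0.38 (SE 0.24, limma adjusted p = 0.969). It ranged from 8.36 to 9.34 in tibial tumours and from 9.28 to 9.50 in the others. Fosl1 had the highest estimate, 0.48 (SE 0.27, 95% interval -0.13 to 1.09, limma adjusted p = 0.952). Leaving out the scapular tumour gave 0.26, leaving out Cre:lox OS replicate 4 gave 0.32, and a fit with no model covariate gave 0.082. Its tibial tumours ranged from 6.16 to 8.54 and the others from 6.45 to 7.94, and the sites overlapped. With the site as a covariate in turn, the model difference of Fosl1 was -1.50 (SE 0.26) with a limma adjusted p of 0.0721. Fos (-0.31), Fosb (-0.35), Fosl2 (-0.32), Atf3 (-0.37), Jun (-0.21) and Egr1 (-0.16) had lower estimates in tibial tumours, and Junb (0.0047) and Ier3 (0.09) were near 0. Without shRNA OS replicate 4 the estimates of Jun (0.0763) and Egr1 (0.124) were above 0, and median centring turned that of Junb to -0.0047.

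Of the 36 other immediate early genes, 29 had lower and 7 higher estimates in tibial tumours, none past the threshold, and 55.5% of all genes were lower. The smallest p belonged to Ptgs2, the inducible cyclooxygenase, which went the other way at 2.06 (SE 0.36, limma adjusted p = 0.504). In the remaining lists the gene of smallest p was Jdp2, a repressor that binds JUN (-0.64), Mrtfb, a coactivator of serum response factor (-0.57), Timp1 (0.99) and Hspa1a (-0.88), with limma adjusted p from 0.616 to 0.923. Tibial tumours also had higher estimates for 6 of 7 macrophage, 5 of 6 fibroblast, 7 of 7 skeletal muscle and 6 of 7 T and NK cell markers. Their estimates were lower for 7 of 7 osteoclast and 5 of 5 osteoblast markers. The part of these cells in the estimates by bone was not tested.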

How the data were processed

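Biotin-labelled total RNA of 8 tumours, extracted with Trizol and RNeasy columns per the labels, was read on 1-colour arrays. The authors deposited log2 expression values; the submitters' processing notes name RMA (robust multi-array average) and mm9. For the RMA version and any filter, the sources used here give nothing.

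Of 35556 probe sets, 21789 had 1 gene symbol in the platform annotation, and these alone were used (1621 had several and 12146 none). The probe set with the highest mean represented each gene. All 10 gene IDs were found in the RefSeq table, which is of another build (GRCm38.p6) than mm9 and gave names and promoters only. The labels name each tumour separately, so replicate numbers, given here in accession order, pair no tumours, and the tests use the spread from tumour to tumour. Nothing in the labels names a batch.

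Each comparison was a limma 3.58.1 fit (lmFit, then eBayes; R 4.3.3), with Benjamini-Hochberg adjustment over all 19938 genes and a threshold of 0.05. The model comparison had no covariate and the site comparison had the model. Pairs of genes were tested by exact permutation. The genes and lists were chosen with earlier results of these data known. The genes named were the 10 themselves, those of smallest p in each list (2 by model, 1 by site) and the 5 most alike to Fos and to Jun. Provisional symbols (Rik, Gm, LOC), Y-linked genes and Xist were passed over. Alternatives were other normalizations, filters, covariates, subsets, and leaving out each tumour. Signal over background was not analysed here.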

Additional observations from a re-analysis of the deposited data

Results flagged for a closer look

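Fosl2 was 10.49 in Cre:lox OS replicate 2, far from the other Cre:lox OS tumours at 9.78 to 9.86, with a gap of 0.887 of the group's range. Single tumours were examined in 30 groups of 4 or 5 values (10 genes in each model and in tibial tumours). Chance marks about 1 in 20 such groups, and this was the 1 group marked.

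For Junb the site difference, tibia minus humerus and scapula, ran in opposite directions in the 2 models. This was not particular to Junb. The means of Jun and Egr1 ran in the same directions as those of Junb, and the means of Fos and Ier3 in the reverse ones. For Junb the difference was -0.39 in shRNA OS, where all 3 tibial tumours lay below the humeral one. It was 0.30 in Cre:lox OS, where both tibial tumours lay above the other 2. The shRNA OS side rests on 1 humeral tumour. A limma term for the difference between the models was -0.70 with an unadjusted p of 0.0698 and an adjusted p of 1 over all genes.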

How the results depend on the processing

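With 4 tumours a model, no gene of the 10 passed in either comparison under any of the 19 alternatives by model or 18 by site. The genes were not all tested in each, since Fosl1 lies below the median level and is absent from that filter. By model every gene kept its lower mean in shRNA OS except Jund, which was 0.0299 with only Rbfl/+ tumours and ran from -0.342 to 0.0234 without single tumours (highest without shRNA OS replicate 2). Several alternatives cannot change a gene's model difference, so a kept sign there carries no information. These are the mean of probe sets, the filters by level, eBayes with a variance trend and robust setting, and Rb genotype as a covariate. Without single tumours the differences ran from -0.548 to -0.172 for Fos, -0.467 to -0.0714 for Fosb, -0.415 to -0.111 for Fosl2, -0.341 to -0.0687 for Egr1 and -0.616 to -0.162 for Atf3. Those nearest 0 came without Cre:lox OS replicate 2 (Fos, Fosb and Fosl2), shRNA OS replicate 1 (Egr1) and shRNA OS replicate 2 (Atf3). With only tibial tumours Fos was -0.0362, Fosb -0.0696 and Atf3 -0.0772, and with only Rbfl/+ tumours Atf3 was -0.0186. The adjusted p of Fosl1 ranged from 0.0721 to 0.375, that of Jun from 0.196 to 0.447 and that of Ier3 from 0.0929 to 0.861. The differences ranged from -1.69 to -1.18 for Fosl1, from -0.94 to -0.56 for Jun and from -1.10 to -0.72 for Ier3.

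The 4 genes called by model became 8 with quantile normalization, 2 with median centring, 0 above the median level, 19 with array weights, 9 with only Rbfl/+ tumours, 13 with site as a covariate and 2 with only tibial tumours. Leaving out a tumour gave 42 (shRNA OS replicate 1), 19 (Cre:lox OS replicate 1), 7 (shRNA OS replicate 2), 1 (Cre:lox OS replicates 2 and 4, each) or 0 (the other 3). By site the count of 0 became 1 when shRNA OS replicate 4, or else Cre:lox OS replicate 2, was left out. In the site comparison, estimates near 0 changed sign. Junb was -0.0047 with median centring, -0.0729 with array weights, -0.0408 with Rb genotype as a covariate, -0.0314 with only Rbfl/+ tumours, -0.12 with no model covariate, and -0.12 to 0.30 without single tumours. Ier3 was -0.15 with no model covariate and -0.10 to 0.30 without single tumours. Jun reached 0.0763 and Egr1 0.12 without shRNA OS replicate 4, and their lowest values without single tumours were -0.32 and -0.27. Without single tumours the site estimates of the remaining genes kept their sign, from -0.584 to -0.0914 for Fos, -0.519 to -0.102 for Fosb, -0.464 to -0.155 for Fosl2, -0.598 to -0.0453 for Atf3, -0.51 to -0.261 for Jund and 0.264 to 0.716 for Fosl1. Of the pairs, 0 passed in the main test, with quantile normalization and with the mean of probe sets (which leaves these genes as they are, since each has 1), and 0 to 1 without single tumours. The 1 was Fosl1 with Ier3 without Cre:lox OS replicate 4 (pooled r = 0.97, exact permutation p = 3.97e-04, adjusted 0.0179), whose r within models was 0.90 there and 0.36 over all tumours. The causes were not tested. No paired analysis was possible because the labels give the models no shared replicate numbers.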

Other observations

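The 2 Rb+/+ tumours differed from each other for these genes, and they also differ in model and bone. In the shRNA OS one (replicate 2) none of the 10 genes was above its mean over the 8 tumours, with a median deviation of -0.52. This is also the tumour whose array stood apart. In the Cre:lox OS one (replicate 1) 7 of the 10 were above, with a median deviation of 0.14. The Rbfl/+ Cre:lox OS replicate 4 was similar, with 7 of the 10 above and a median deviation of 0.11. Jun was 8.65 in the Rb+/+ tumour of shRNA OS and 9.97 in that of Cre:lox OS. Rb genotype is split alike in the 2 models, so as a covariate it cannot move the model difference. That of Jun was thus -0.75 by design, and only its SE could change (0.19). In Rbfl/+ tumours alone the model difference of Jun was -0.56 (SE 0.18).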
